A study of Homo sapiens with 6 samples.

Results

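Genes that license replication origins and build the replication fork were followed in HCT-8 cells, a human colorectal adenocarcinoma line grown as a monolayer. The list holds 51 genes, chosen by gene name, of the 58735 genes in the count table; each name matched 1 gene. RNA was sequenced from 3 libraries of cells treated with 5-fluorouracil (5-FU) and 3 libraries of untreated control cells. 5-FU is a fluoropyrimidine drug that blocks thymidylate synthase and is incorporated into nucleic acids, and it was used here at its 10% inhibitory concentration. The sources used here give neither its molar dose nor the length of treatment. Whether the 3 samples of a group were grown as separate cultures is not stated, and the p-values therefore rest on a spread between samples that could be technical.

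Origins are licensed in G1, when the origin recognition complex, CDC6 and CDT1 load the MCM2-7 ring onto DNA. In S phase the kinase CDC7 with its partner DBF4, together with cyclin-dependent kinases, recruits CDC45 and GINS to the ring, and the resulting CMG helicase unwinds DNA ahead of the polymerases. Most of these genes are known targets of E2F transcription factors and are transcribed mainly around the G1 to S transition, while several origin recognition subunits are expressed through the whole cycle. Thymidylate synthase supplies the thymidine nucleotides that the polymerases use.

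Total counts per library ran from 18459939 to 23495607. Mitochondrially encoded transcripts took 28.5%, 25.5% and 26.2% of the counts in the 5-FU libraries, against 4.85%, 4.88% and 4.66% in the control libraries. MKI67, a marker of cycling cells that is not among the 51, had 22.8, 61.3 and 52.0 CPM in the 5-FU libraries, against 845, 588 and 1019 CPM in the control libraries (-4.17, SE 0.34, edgeR adjusted p = 2.51e-06). CPM are counts scaled to library size with TMM factors, and a pair of values in brackets after a gene is its log2 fold change of 5-FU over control with its standard error (SE). With mitochondrially encoded genes left out of the fit, 47 of the 51 genes were called lower, at a median log2 fold change of -2.03. Over the 20012 genes of that fit 6783 were called lower. Leaving these genes out moved the median of all genes by only 0.0012, so that fit is no check of the mitochondrial difference. The part of the mitochondrial and MKI67 differences in the results was not tested. The 7 epithelial markers were detected in every library and summed to 715 to 1004 FPKM (fragments scaled to gene length and library depth) with 5-FU and 1088 to 1577 FPKM in control. For 3 of them every 5-FU library lay below every control library: EPCAM at 77.1 to 103 with 5-FU and 165 to 218 FPKM in control, KRT8 at 189 to 301 and 345 to 512 FPKM, and CDX2 at 12.0 to 13.5 and 26.4 to 35.5 FPKM. KRT18, KRT19, CDH1 and VIL1 overlapped between the groups. In CPM, every 5-FU library lay below every control library for 35.9% of all tested genes and 54.1% of protein-coding genes averaging 100 counts or more. No such share was computed in FPKM, whose divisor was larger relative to the library total with 5-FU. The part of the marker differences in the results was not tested. The 5 leukocyte markers summed to 0.135 to 0.217 FPKM with 5-FU and 0.0317 to 0.130 in control, and the 3 endothelial markers to 0.378 to 0.568 and 0.258 to 0.373. The 5 fibroblast markers summed to 3.39 to 5.98 FPKM with 5-FU and 1.75 to 2.19 in control, mostly COL1A1, with DCN and LUM at 0 throughout. Control replicate 2 was the lowest of the control libraries for all 51 genes, whereas it was the lowest for 40.2% of all tested genes. 5-FU replicate 1 was the lowest of its group for 41 of the 51, against 37.3% of all tested genes.

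The replication genes were lower after 5-FU almost throughout. Their summed counts made up 0.0873%, 0.109% and 0.103% of all counts in the 5-FU libraries, against 0.396%, 0.289% and 0.426% in the control libraries. The exact 95% binomial interval, which covers counting error only, was 0.0859% to 0.0886% in 5-FU replicate 1 and 0.286% to 0.291% in control replicate 2, the lowest library of each group. Taken over the counts that are not mitochondrially encoded, the sum was 0.136% ± 0.0125 with 5-FU and 0.389% ± 0.0754 in control (SD, n = 3 per group). In edgeR's quasi-likelihood test over 19771 genes, 47 of the 51 were lower at an adjusted p under 0.05, none was higher and 4 did not pass (ORC2, ORC4, CCNE1 and CCNE2). No gene of the 51 was higher at an unadjusted p under 0.05 either, and none was called higher by DESeq2 or limma-voom. Over all tested genes 70.2% were called, 33.9% lower and 36.3% higher. Among the 11418 protein-coding genes averaging 100 counts or more, a level that all 51 reach, 51.8% were called lower. The median log2 fold change of the 51 was -2.02, against 0.09 over all tested genes and -0.38 over those protein-coding genes. A call with at least a 4-fold fall was made for 27 of the 51, against 2.98% of all tested genes and 3.7% of those protein-coding genes. One with at least an 8-fold fall was made for 8, against 0.637% of all tested genes. The 5-FU libraries all lay below the control libraries for 48 of the 51, against 35.9% of all tested genes and 54.1% of those protein-coding genes. In bulk RNA, fewer cells in S phase and less transcript per cell cannot be told apart.

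**Figure D1:**
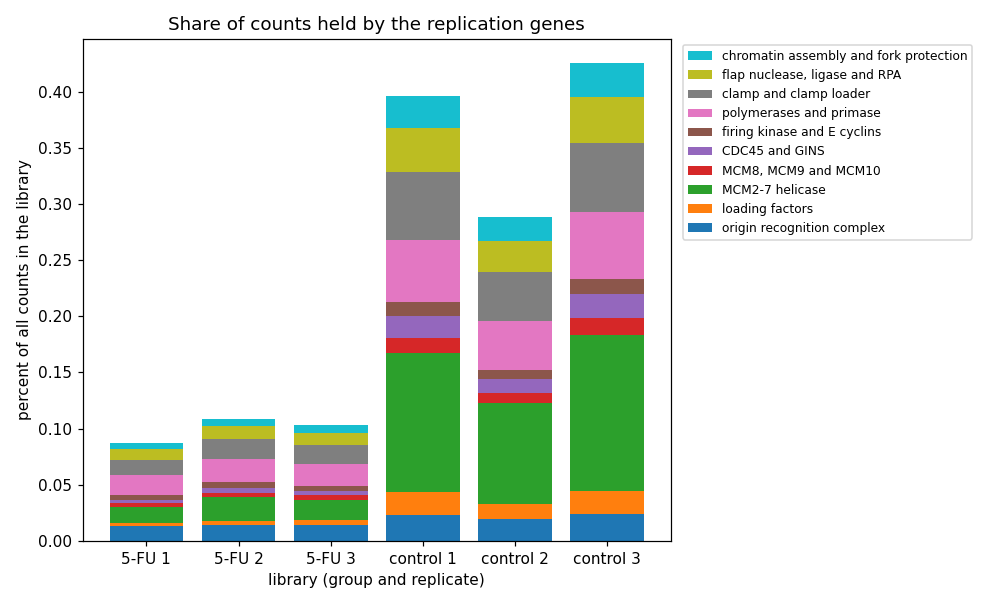
Percent of all counts held by the replication genes (vertical axis, bars from 0) in each library, 5-FU libraries left and control libraries right, stacked by complex. The 5-FU bars end between 0.0873% and 0.109% and the control bars between 0.289% and 0.426%; the MCM2-7 segment is the largest in the control bars.

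**Figure D2:**
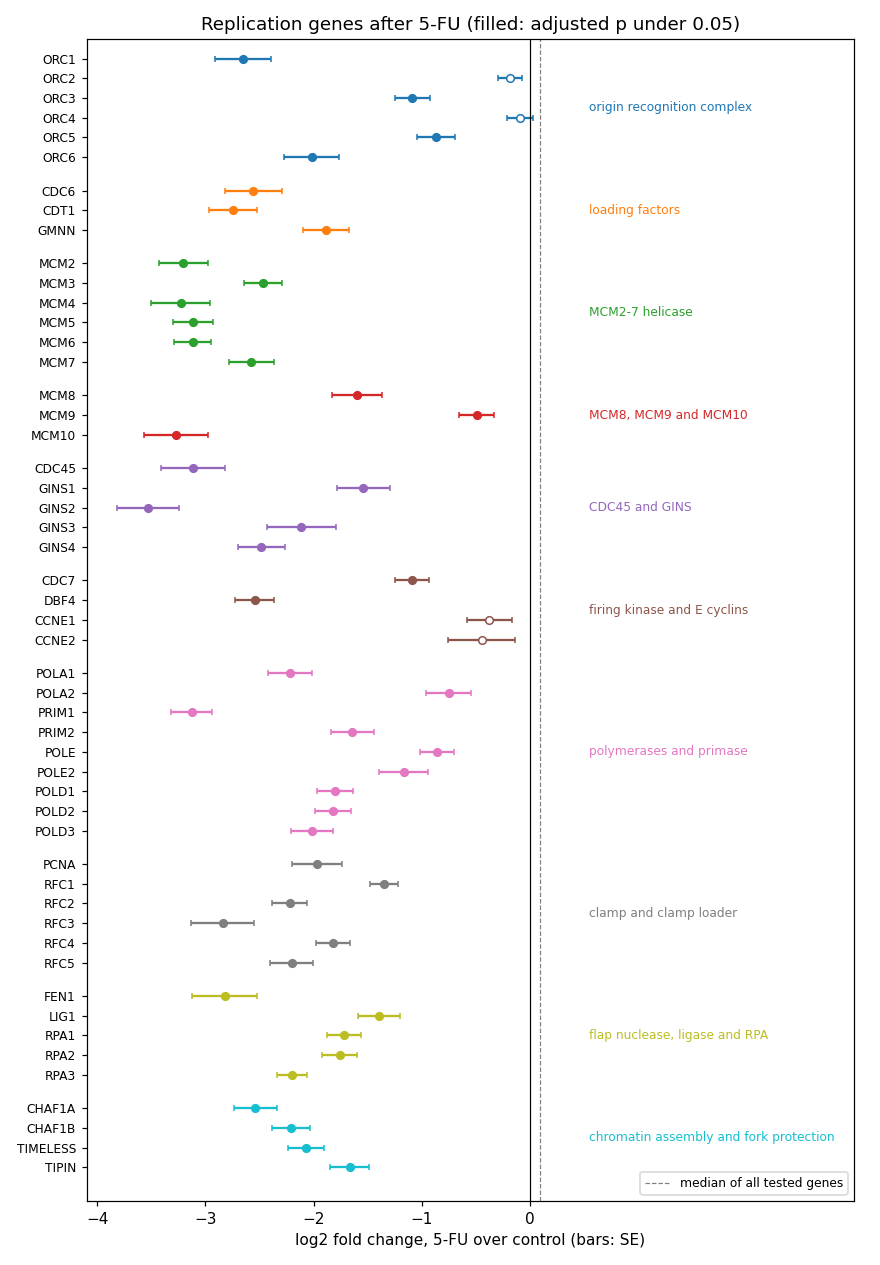
Log2 fold change of 5-FU over control (horizontal axis, bars show the SE) for each of the 51 genes, grouped by complex; filled points passed an adjusted p under 0.05 in edgeR, and the dashed line is the median of all tested genes. The 4 open points are ORC2, ORC4, CCNE1 and CCNE2; the sign of ORC2 and ORC4 turned with upper-quartile scaling.

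Promoter sequence is shown for 4 genes, chosen after their values were seen, that differ in their log2 fold change or in the letters they hold. RefSeq promoters (GRCh38.p14, 250 bases before to 50 bases after a transcript start) matched 44 of the 51 genes, with 55 promoters. Each window below runs from 250 to 51 bases before the start, is written 5′ to 3′ along the gene and holds no annotated exon; capitals mark matches to E2F letters. MCM6 and POLA1 fell and hold such a match, MCM10 fell and holds none, and ORC4 did not pass the test and holds none. Genes that hold a match in a promoter and fell less, such as POLE (-0.86) and POLA2 (-0.75), are not shown. The medians of all matched genes with and without the letters are given below. The windows lie at chr2:135876494-135876693 (minus strand), chrX:24693668-24693867 (plus strand), chr10:13161308-13161507 (plus strand) and chr2:148020788-148020987 (minus strand). The ORC4 window lies inside the ORC4 gene, before an internal start. The other ORC4 promoter, with its upstream bases at chr2:148021552-148021801 near the outer end of the gene, is not shown and also holds no E2F match.
MCM6: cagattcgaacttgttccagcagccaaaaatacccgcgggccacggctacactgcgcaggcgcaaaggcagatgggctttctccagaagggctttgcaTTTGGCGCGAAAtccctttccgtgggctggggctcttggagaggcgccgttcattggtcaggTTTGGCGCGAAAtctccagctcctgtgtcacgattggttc
POLA1: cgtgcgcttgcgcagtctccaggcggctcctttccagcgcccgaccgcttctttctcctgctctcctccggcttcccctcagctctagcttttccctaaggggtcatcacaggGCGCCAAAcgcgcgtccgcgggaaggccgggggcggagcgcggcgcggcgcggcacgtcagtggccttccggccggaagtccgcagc
MCM10: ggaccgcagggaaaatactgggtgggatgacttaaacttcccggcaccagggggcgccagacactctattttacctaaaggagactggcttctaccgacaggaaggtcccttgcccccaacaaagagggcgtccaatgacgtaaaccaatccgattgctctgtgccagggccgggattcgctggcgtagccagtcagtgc
ORC4: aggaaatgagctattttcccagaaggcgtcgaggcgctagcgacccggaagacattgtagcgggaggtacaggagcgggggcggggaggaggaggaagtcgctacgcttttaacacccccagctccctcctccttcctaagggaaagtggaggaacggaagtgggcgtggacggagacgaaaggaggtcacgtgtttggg
The E2F letters searched on both strands were TTTCCCGC, TTTGGCGC, TTTCGCGC and TTTGCCGC, and in the MCM6 window a match on each strand overlaps its neighbour in both places. They were found in at least 1 promoter of 21 of the 44 genes (47.7%), against 3.99% of 27305 genes in the promoter table. CCAAT was present for 26 of the 44 (59.1%), against 39.7% of all genes. The CHR letters TTTGAA and TTCGAA were present for 2 of the 44 (4.55%), MCM6 and DBF4, against 19.5% of all genes. None of these shares was matched for GC content or expression. By complex, the E2F letters were found in 4 of 4 matched MCM2-7 genes, 3 of 3 loading factors, 3 of 4 genes of CDC45 and GINS, and 4 of 8 polymerase and primase genes. They were found in 2 of 6 genes of the clamp and its loader, 1 of 3 genes each of the MCM8 to MCM10 group, the firing kinase and E cyclins, and the flap nuclease, ligase and RPA group, 1 of 4 genes of chromatin assembly and fork protection, and 1 of 6 origin recognition genes. The median log2 fold change was -1.97 for the 21 genes with the letters and -2.02 for the 23 without.

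Of the 6 origin recognition subunits 4 fell and ORC2 and ORC4 missed the threshold; the median log2 fold change was -0.98. ORC1, the subunit whose level varies through the cell cycle in human cells, had 3.87, 5.48 and 6.15 CPM in the 5-FU libraries, against 38.0, 20.6 and 39.4 CPM in the control libraries, a 6.30-fold lower mean in the fit (log2 fold change -2.66, SE 0.26, edgeR adjusted p = 6.10e-06). ORC6, the smallest subunit, had 6.93, 13.4 and 11.6 CPM in the 5-FU libraries, against 50.7, 29.1 and 49.2 CPM in the control libraries (-2.02, SE 0.26, edgeR adjusted p = 3.47e-05). Each 5-FU library lay below each control library for both genes. ORC3 (-1.09, SE 0.16) and ORC5 (-0.87, SE 0.17) fell less, with edgeR adjusted p = 1.19e-04 and 9.54e-04.
ORC2 had 40.8, 39.9 and 40.9 CPM in the 5-FU libraries, against 46.0, 43.0 and 48.9 CPM in the control libraries. These groups did not overlap, but the difference did not pass (-0.18, SE 0.11, edgeR adjusted p = 0.162). ORC4 had 47.3, 40.4 and 48.4 CPM in the 5-FU libraries, against 52.2, 45.1 and 47.3 CPM in the control libraries, with overlapping groups (-0.09, SE 0.12, edgeR adjusted p = 0.532). The log2 fold change of ORC2 ranged from -0.33 to 0.18 and that of ORC4 from -0.24 to 0.27 over 18 alternative settings, so neither has a settled sign; ORC2 was called lower in 4 of them, the DESeq2 test and all 3 fits to FPKM. ORC1 lies on chromosome 1 at 52372829 to 52404459 on the minus strand of GRCh38, and ORC4 (ENSG00000115947) on chromosome 2 at 147930397 to 148021604 on the minus strand. Per gene length, in the deposited FPKM, ORC1 (10.8) and ORC6 (10.4) were the most abundant of the 6 subunits in control cells by their mean, although their ranges there overlapped those of ORC2, ORC3 and ORC5. In 5-FU cells ORC1 (1.54) and ORC6 (2.33) had the lowest means and ORC2 (6.52) the highest, and every ORC2 library lay above every ORC1 and ORC6 library. These orders rest in part on the listed lengths, from 3157 bases for ORC1 to 8915 for ORC4. By mean CPM in control, ORC4 (48.2) and ORC2 (46.0) lay above ORC6 (43.0) and ORC1 (32.7). After 5-FU the mean CPM of ORC4 (45.3) lay above that of ORC2 (40.5), and ORC1 and ORC6 were again the lowest.

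All 3 genes of origin loading fell, at a median of -2.56. CDC6, the ATPase that helps bring the MCM ring to origins, had 9.53, 17.1 and 17.9 CPM in the 5-FU libraries, against 108, 58.2 and 96.1 CPM in the control libraries (-2.56, SE 0.26, edgeR adjusted p = 8.25e-06). CDT1, which delivers MCM2-7 to the origin, had 5.14, 9.60 and 9.94 CPM in the 5-FU libraries, against 53.8, 48.6 and 63.2 CPM in the control libraries (-2.74, SE 0.22, edgeR adjusted p = 2.24e-06). GMNN encodes geminin, the inhibitor that holds CDT1 inactive after origins have fired, and had 11.9, 11.8 and 10.1 CPM in the 5-FU libraries, against 46.2, 27.5 and 51.3 CPM in the control libraries (-1.88, SE 0.21, edgeR adjusted p = 1.47e-05). In all of them the highest 5-FU library stayed below the lowest control library. The FPKM ratio of CDT1 to GMNN within a library, which does not depend on how libraries are scaled, was 0.320, 0.604 and 0.728 in the 5-FU libraries, against 0.865, 1.31 and 0.915 in the control libraries. It was thus below 1 in every 5-FU library and spread around 1 in control, where replicate 2 was the highest.

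The MCM2-7 ring, the core of the replicative helicase, had the largest difference in its share of counts among the 10 groups of genes. Its 6 genes held 0.0178% ± 0.00330 of all counts with 5-FU and 0.118% ± 0.0251 in control (SD, n = 3 per group), and each of them fell at least 4-fold, at a median log2 fold change of -3.12. MCM4 had 19.1, 34.6 and 29.6 CPM in the 5-FU libraries, against 298, 162 and 321 CPM in the control libraries (-3.23, SE 0.28, edgeR adjusted p = 3.04e-06). MCM2 had 9.88, 14.97 and 17.8 CPM in the 5-FU libraries, against 143, 97.7 and 153 CPM in the control libraries (-3.21, SE 0.23, edgeR adjusted p = 1.14e-06). Both were lowest in 5-FU replicate 1 and, within control, in replicate 2. Of the exonic bases of MCM2, 23.6% lie under exons of opposite-strand genes, and no source used here says whether counting used strand.
MCM6 had 12.8, 17.995 and 16.4 CPM in the 5-FU libraries, against 143, 111 and 157 CPM in the control libraries (-3.12, SE 0.17), and MCM5 had 11.8, 17.1 and 12.8 CPM in the 5-FU libraries, against 118, 96.1 and 147 CPM in the control libraries (-3.12, SE 0.19). The smallest falls in the ring were those of MCM7, with 49.6, 73.9 and 62.8 CPM in the 5-FU libraries, against 369, 277 and 464 CPM in the control libraries (-2.58, SE 0.21), and MCM3, with 33.8, 41.9 and 40.1 CPM in the 5-FU libraries, against 235, 157 and 249.2 CPM in the control libraries (-2.47, SE 0.18). MCM7 and MCM3 were also the 2 most abundant subunits per gene length. By mean FPKM the order was MCM7 (13.3), MCM3 (9.96), MCM4 (3.76), MCM6 (3.60), MCM2 (2.74) and MCM5 (1.78) after 5-FU. It was the same in control, with 87.8, 60.9, 38.9, 34.6, 27.8 and 17.0 FPKM. Neighbours in that order overlapped between libraries in both groups, except MCM3 and MCM4 after 5-FU.

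MCM8, MCM9 and MCM10, which are not subunits of the ring, were all called lower. MCM10, which helps activate the helicase and brings in polymerase alpha, had 3.36, 5.16 and 7.34 CPM in the 5-FU libraries, against 59.0, 32.4 and 62.5 CPM in the control libraries (-3.27, SE 0.30, edgeR adjusted p = 4.08e-06). MCM8, which with MCM9 forms a helicase of homologous recombination, had 19.9, 26.3 and 20.4 CPM in the 5-FU libraries, against 75.1, 41.3 and 85.0 CPM in the control libraries (-1.60, SE 0.23, edgeR adjusted p = 9.31e-05). MCM9 had 10.2, 9.91 and 9.52 CPM in the 5-FU libraries, against 14.0, 11.8 and 15.9 CPM in the control libraries, with groups that did not overlap, and a small fall (-0.49, SE 0.16, edgeR adjusted p = 0.0172). Its call was lost with upper-quartile factors (-0.13, edgeR adjusted p = 0.489), with genes under a mean count of 50 removed (-0.24, edgeR adjusted p = 0.194) and without control replicate 3 (-0.42, edgeR adjusted p = 0.0624). It was also lost on unfiltered log2(FPKM + 1) with limma (-0.30, adjusted p = 0.105).

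CDC45 and the 4 GINS subunits, which complete the CMG helicase with the MCM ring, all fell, at a median of -2.48. GINS2 had 1.88, 3.65 and 3.93 CPM in the 5-FU libraries, against 39.2, 24.4 and 46.3 CPM in the control libraries (-3.53, SE 0.29, edgeR adjusted p = 2.51e-06). This was the lowest log2 fold change of the 51 in the edgeR fit, while on log2(FPKM + 1) MCM4 was lowest at -3.04 and GINS2 stood at -2.70. Counts of 37, 70 and 83 in the 5-FU libraries stood against 873, 540 and 939 in control, so few reads carry its 5-FU level. GINS2 (ENSG00000131153) lies on chromosome 16 at 85676198 to 85690073 on the minus strand. CDC45 had 3.36, 7.88 and 8.57 CPM in the 5-FU libraries, against 60.1, 42.0 and 69.8 CPM in the control libraries (-3.11, SE 0.29, edgeR adjusted p = 5.22e-06), with 5-FU replicate 1 the lowest.
GINS4 had 4.69, 6.78 and 7.53 CPM in the 5-FU libraries, against 37.5, 26.3 and 42.5 CPM in the control libraries (-2.48, SE 0.22), and GINS3, the least abundant of the complex per gene length, had 2.75, 2.92 and 3.79 CPM in the 5-FU libraries, against 18.4, 7.05 and 15.7 CPM in the control libraries (-2.12, SE 0.32). GINS1 fell the least, with 12.2, 16.6 and 13.7 CPM in the 5-FU libraries, against 49.9, 23.9 and 49.7 CPM in the control libraries (-1.54, SE 0.25). The groups did not overlap for any of the 4 subunits, and the falls ran from 2.90-fold to 11.6-fold. Opposite-strand exons overlie 23.6% of GINS4.

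Both subunits of the kinase that fires origins fell, and neither E cyclin passed the test. DBF4, the regulatory subunit, had 8.30, 9.81 and 9.23 CPM in the 5-FU libraries, against 56.3, 39.5 and 63.7 CPM in the control libraries (-2.54, SE 0.18, edgeR adjusted p = 1.24e-06). CDC7, the catalytic subunit, had 19.3, 19.3 and 19.8 CPM in the 5-FU libraries, against 42.9, 31.7 and 49.5 CPM in the control libraries (-1.09, SE 0.16, edgeR adjusted p = 1.01e-04). The FPKM ratio of DBF4 to CDC7 was 0.335, 0.394 and 0.362 in the 5-FU libraries, against 1.02, 0.966 and 0.997 in the control libraries, close to equal in each control library and lower in each 5-FU library.
CCNE1 and CCNE2 encode the cyclins E that activate CDK2 at the entry to S phase. CCNE1 had 11.7, 11.8 and 10.2 CPM in the 5-FU libraries, against 18.3, 9.81 and 15.5 CPM in the control libraries, and CCNE2 had 7.64, 8.19 and 7.01 CPM in the 5-FU libraries, against 14.8, 4.97 and 11.3 CPM in the control libraries. The 5-FU values lay inside the control range for both genes, since control replicate 2 was the lowest library and the other controls were higher than any 5-FU library. Neither passed (-0.37, SE 0.21, edgeR adjusted p = 0.134 for CCNE1; -0.44, SE 0.31, edgeR adjusted p = 0.217 for CCNE2). Without control replicate 2 both were called lower, CCNE1 at -0.63 (edgeR adjusted p = 0.00496) and CCNE2 at -0.81 (edgeR adjusted p = 0.00264), and both were called too without the low-count filter (-0.52 and -0.59). That unfiltered fit covered 39721 genes at a median log2 fold change of 0.63, against 0.09 in the main fit. Its SE was also smaller, at 0.18 for CCNE1 and 0.20 for CCNE2. Opposite-strand exons, of INTS8 among others, overlie 37.1% of CCNE2.

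**Figure D3:**
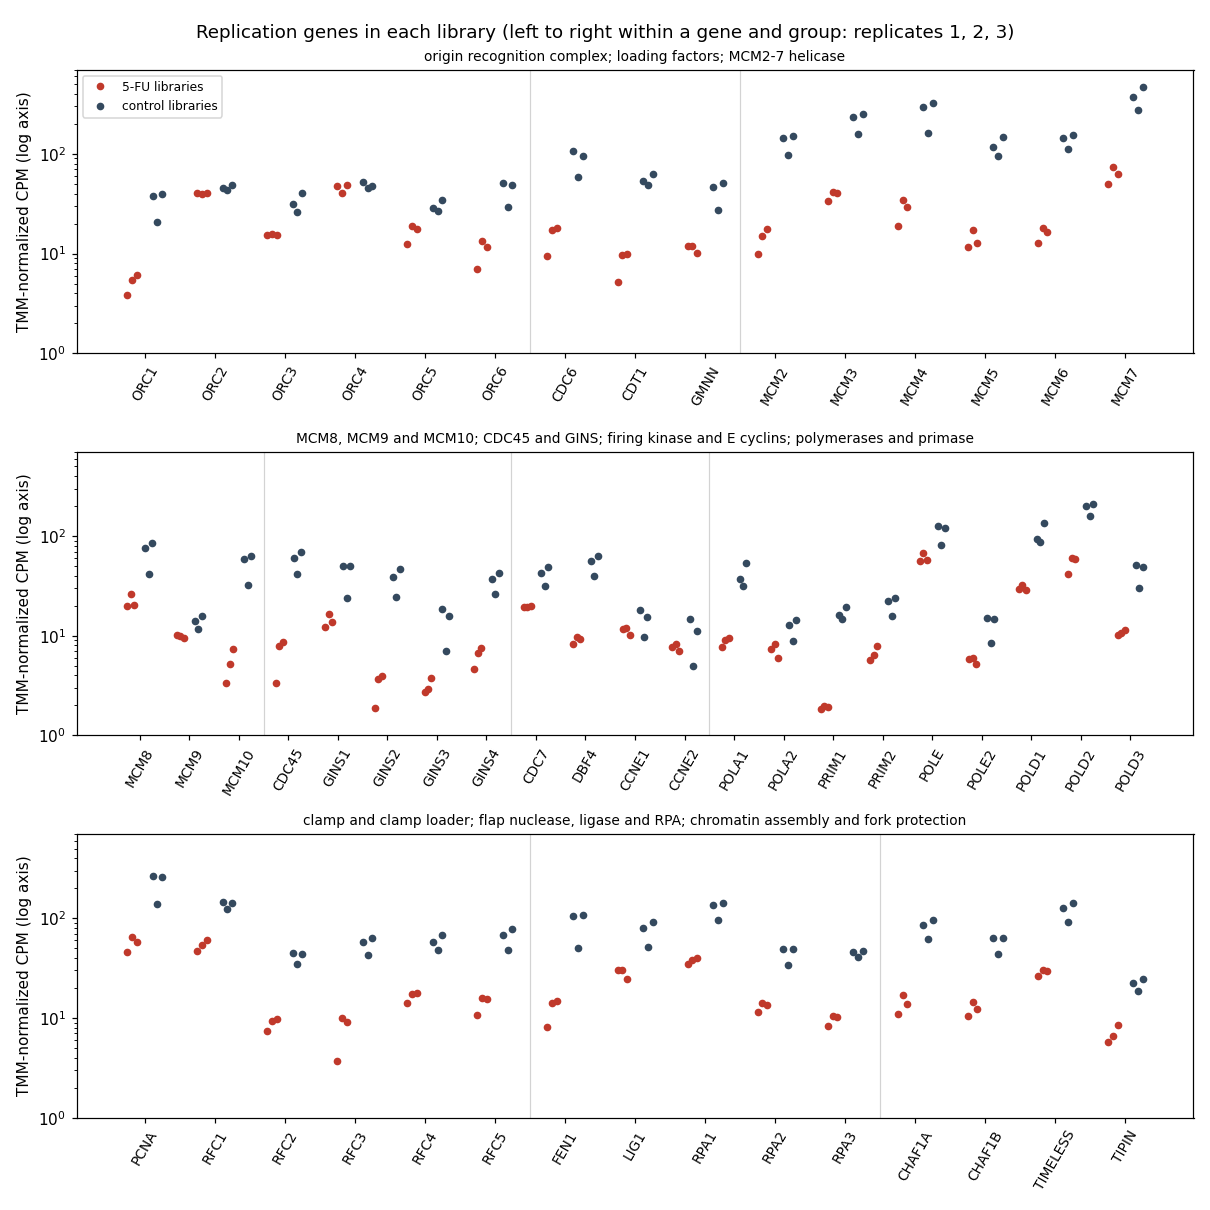
TMM-normalized CPM (vertical log axis) of each gene in each library; red points are the 5-FU libraries and dark points, to their right, the control libraries, replicates 1 to 3 from left to right. The red and dark points overlap for ORC4, CCNE1 and CCNE2 only, and the middle dark point, control replicate 2, is the lowest of its group for every gene.

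All 9 polymerase and primase genes were called lower, at a median of -1.80. PRIM1, the catalytic primase subunit, had 1.83, 1.98 and 1.94 CPM in the 5-FU libraries, against 16.1, 14.8 and 19.4 CPM in the control libraries (-3.13, SE 0.19, edgeR adjusted p = 6.60e-07), from counts of 36, 38 and 41 with 5-FU. Its partner PRIM2 had 5.71, 6.47 and 7.81 CPM in the 5-FU libraries, against 22.6, 15.7 and 24.1 CPM in the control libraries (-1.64, SE 0.20, edgeR adjusted p = 2.40e-05). The FPKM ratio of PRIM1 to PRIM2 was 0.616, 0.587 and 0.476 in the 5-FU libraries, against 1.37, 1.80 and 1.54 in the control libraries. Whether this ratio lies above or below 1 rests on the listed lengths, 2437 bases for PRIM1 and 4667 for PRIM2. In CPM PRIM2 was the higher in every library of both groups, so only the fall of the ratio is read here. Exons of NACA and other genes cover 21.6% of PRIM1.
POLA1, the catalytic subunit of polymerase alpha, had 7.79, 9.08 and 9.52 CPM in the 5-FU libraries, against 37.4, 31.4 and 54.2 CPM in the control libraries (-2.22, SE 0.20). POLA2, its accessory subunit, had 7.39, 8.19 and 5.92 CPM in the 5-FU libraries, against 12.8, 8.90 and 14.4 CPM in the control libraries (-0.75, SE 0.21, edgeR adjusted p = 0.00734). The POLA2 call was lost with upper-quartile factors (-0.38, edgeR adjusted p = 0.112) and with genes under a mean count of 50 removed (-0.50, edgeR adjusted p = 0.0550), and a gene on the same strand covers 35.1% of its exonic bases.
Polymerase delta, which makes the lagging strand, was lower in its 3 listed subunits: POLD1, the catalytic one, fell by 1.80, POLD2 by 1.82 and POLD3 by 2.01 on the log2 scale. POLD2 had 42.1, 59.9 and 59.1 CPM in the 5-FU libraries, against 201, 157 and 210.4 CPM in the control libraries. POLE, the catalytic subunit of polymerase epsilon on the leading strand, had 55.8, 67.0 and 57.9 CPM in the 5-FU libraries, against 125, 82.0 and 120.4 CPM in the control libraries (-0.86, SE 0.16, edgeR adjusted p = 5.74e-04). POLE2 had 5.86, 5.95 and 5.26 CPM in the 5-FU libraries, against 15.1, 8.45 and 14.8 CPM in the control libraries (-1.17, SE 0.23, edgeR adjusted p = 7.16e-04).

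The sliding clamp and the 5 genes of its loader all fell, at a median of -2.09. PCNA, the ring that tethers polymerases to DNA, was the most abundant of the 51 per gene length in both groups. It had 28.3, 42.4 and 37.7 FPKM in the 5-FU libraries, against 188, 95.2 and 185 FPKM in the control libraries, and on the scale of normalized counts 56.4 ± 9.71 CPM after 5-FU and 221 ± 72.0 CPM in control (SD, n = 3 per group; -1.97, SE 0.23, edgeR adjusted p = 2.01e-05). Its control libraries spread widely, with replicate 2 between the 5-FU libraries and the other controls. RFC1, the large subunit of the clamp loader, had 46.5, 54.1 and 60.1 CPM in the 5-FU libraries, against 144, 123 and 142 CPM in the control libraries (-1.35, SE 0.13, edgeR adjusted p = 5.75e-06), the smallest fall of the loader.
RFC3 had 3.72, 9.96 and 9.18 CPM in the 5-FU libraries, against 58.1, 42.9 and 63.2 CPM in the control libraries (-2.84, SE 0.29, edgeR adjusted p = 8.13e-06). Its 5-FU replicate 1 was the lowest library. RFC2 (-2.22, SE 0.16), RFC5 (-2.20, SE 0.20) and RFC4 (-1.82, SE 0.16) lay between them. The FPKM ratio of RFC3 to RFC1 was 0.187, 0.431 and 0.357 in the 5-FU libraries, against 0.941, 0.814 and 1.04 in the control libraries.

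All 5 genes of Okazaki fragment processing and single-strand binding fell, at a median of -1.76. FEN1, the flap endonuclease, had 8.05, 14.2 and 14.9 CPM in the 5-FU libraries, against 105, 50.2 and 108 CPM in the control libraries (-2.82, SE 0.30, edgeR adjusted p = 1.01e-05). LIG1, the ligase that seals the fragments, had 30.2, 30.0 and 24.6 CPM in the 5-FU libraries, against 79.1, 51.1 and 92.2 CPM in the control libraries (-1.39, SE 0.19, edgeR adjusted p = 6.85e-05). The FPKM ratio of FEN1 to LIG1 was 0.707, 1.26 and 1.61 in the 5-FU libraries, against 3.51, 2.61 and 3.12 in the control libraries, with no overlap between the groups.
Of the single-strand binding complex RPA, RPA1, the largest subunit, had 34.5, 38.3 and 40.4 CPM in the 5-FU libraries, against 135, 95.04 and 142 CPM in the control libraries (-1.72, SE 0.16). RPA2 fell by 1.76 and RPA3 by 2.20 on the log2 scale. For all 3 subunits every 5-FU library lay below every control library.

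Both subunits of chromatin assembly factor 1 that are in the list fell; the factor places histones on new DNA behind the fork. CHAF1A had 10.95, 16.9 and 13.8 CPM in the 5-FU libraries, against 85.3, 61.6 and 95.04 CPM in the control libraries (-2.54, SE 0.19, edgeR adjusted p = 1.80e-06), and CHAF1B had 10.5, 14.3 and 12.2 CPM in the 5-FU libraries, against 63.2, 43.8 and 64.1 CPM in the control libraries (-2.21, SE 0.18, edgeR adjusted p = 2.26e-06). The fork protection pair fell too, and the median of the 4 genes was -2.14. TIMELESS had 26.3, 30.4 and 29.5 CPM in the 5-FU libraries, against 126, 91.9 and 144 CPM in the control libraries (-2.07, SE 0.16, edgeR adjusted p = 2.09e-06), and its partner TIPIN had 5.76, 6.52 and 8.47 CPM in the 5-FU libraries, against 22.6, 18.8 and 24.6 CPM in the control libraries (-1.67, SE 0.18, edgeR adjusted p = 1.24e-05). A ribosomal protein pseudogene on the same strand covers 21% of TIPIN. In both pairs the FPKM ratio of the smaller to the larger protein was higher in every 5-FU library: CHAF1B to CHAF1A was 0.805, 0.713 and 0.739 in the 5-FU libraries, against 0.622, 0.598 and 0.567 in the control libraries, and TIPIN to TIMELESS was 0.462, 0.454 and 0.606 in the 5-FU libraries, against 0.378, 0.433 and 0.361 in the control libraries.

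Ratios between partner genes were computed within each library for 20 pairs, chosen after their values were seen and so given without a test. The groups did not overlap for 16 of them. No such share was computed for other pairs of genes, so this count is not a result about partner genes. ORC1 to ORC4 was 0.231, 0.383 and 0.359 in the 5-FU libraries, against 2.05, 1.29 and 2.36 in the control libraries. GINS2 to GINS1 was 0.192, 0.274 and 0.357 in the 5-FU libraries, against 0.978, 1.27 and 1.161 in the control libraries. MCM10 to MCM9 was 0.752, 1.19 and 1.77 in the 5-FU libraries, against 9.69, 6.31 and 8.99 in the control libraries. The gene on top of these ratios thus lost more than its partner in every 5-FU library, whatever the scaling. CCNE1 to CCNE2, POLE2 to POLE, POLD3 to POLD1 and PCNA to RFC1 were the 4 pairs whose groups overlapped.

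**Figure D4:**
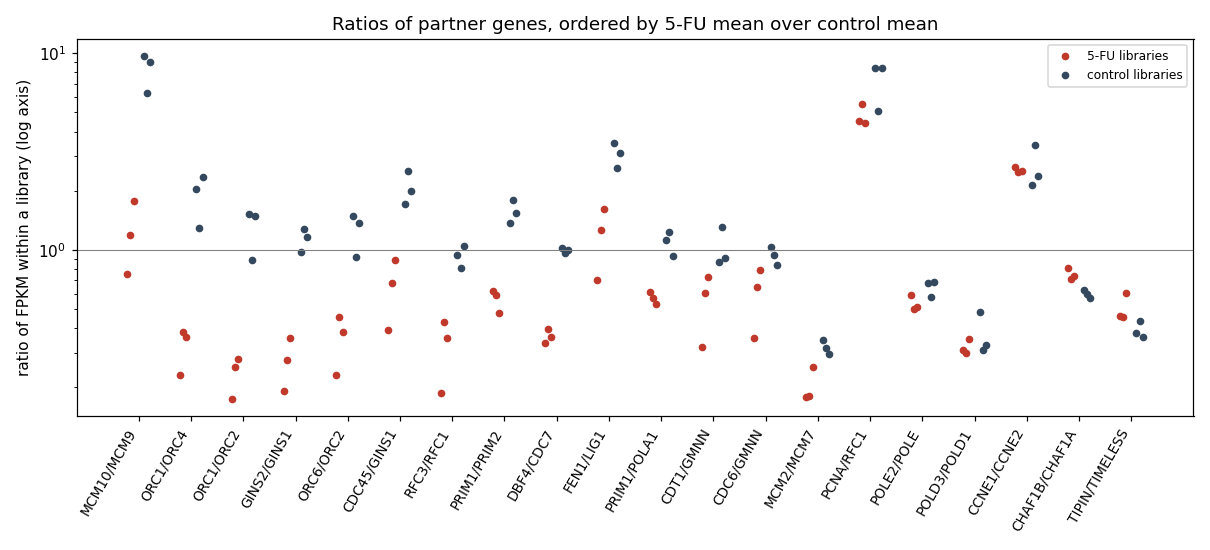
Ratio of the FPKM of 2 partner genes within each library (vertical log axis), for 20 pairs ordered from the most lowered ratio (left) to the most raised (right); red points are 5-FU libraries and dark points control libraries. MCM10 to MCM9 stands at the left end with ratios of 0.752 to 1.77 after 5-FU and 6.31 to 9.69 in control, and TIPIN to TIMELESS at the right end.

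A further 39 genes of DNA replication outside the list were read from the same fit. They too were chosen with earlier results of these data known, and are no independent check. Of the 39, 36 were lower, POLD4 alone was higher and 2 did not pass (DONSON and RNASEH2A, named here after their values were seen). DONSON stood at -0.09 (SE 0.19). RNASEH2A had 7, 24 and 6 counts in the 5-FU libraries, against 26, 14 and 45 in the control libraries (-1.09, SE 0.58). Such low counts leave the change of RNASEH2A unsettled. Over all tested genes 33.9% were called lower and 36.3% higher. Among protein-coding genes averaging 100 counts or more 51.8% were called lower. The median log2 fold change of the 39 was -1.42, against 0.09 over all tested genes and -0.38 over those protein-coding genes. The 3 lower genes of smallest p follow. CCNA2, the cyclin of S phase and G2, had 10.6, 9.55 and 8.10 CPM in the 5-FU libraries, against 135, 80.1 and 162 CPM in the control libraries (-3.74, SE 0.24, edgeR adjusted p = 8.11e-07). MCMBP, an MCM-binding protein, had 25.3, 29.1 and 30.4 CPM in the 5-FU libraries, against 120.0, 98.1 and 121 CPM in the control libraries (-2.001, SE 0.13, edgeR adjusted p = 8.75e-07). SSRP1, a subunit of the histone chaperone FACT, had 62.5, 88.8 and 85.5 CPM in the 5-FU libraries, against 391, 337 and 448 CPM in the control libraries (-2.31, SE 0.17, edgeR adjusted p = 1.37e-06). In each of them every 5-FU library lay below every control library. POLD4, the smallest subunit of polymerase delta, had 15.1, 13.2 and 13.7 CPM in the 5-FU libraries, against 5.65, 7.86 and 5.87 CPM in the control libraries (1.11, SE 0.18, edgeR adjusted p = 1.76e-04). It rose while POLD1, POLD2 and POLD3 fell.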

How the data were processed

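The deposited tables hold whole-number counts and FPKM per gene for 6 libraries. Cells were lysed in TRIzol and sequenced with an NEBNext Ultra RNA kit, per the labels' protocols; that kit name carries no strand marking. The submitters' processing notes list DESeq2 1.16.1, featureCounts 1.5.0-p3 and HISAT2 2.0.5 and the build GRCh38. How counting treated strand and multi-mapping reads is not stated there. The FPKM values, as deposited by the authors, equal the count divided by the length and by a constant per library of 1.16, 1.09 and 1.07 times the total with 5-FU and 0.906, 0.986 and 0.892 times in control. Gene lengths are those the authors list, and all 58735 identifiers and positions matched GENCODE release 29. For the 51 genes the listed length equals the annotated exonic bases of all transcripts together. FPKM levels compared between genes depend on that length.

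Groups come from the treatment label. Counts were tested with the quasi-likelihood test of edgeR 4.0.16 (R 4.3.3; filterByExpr with minimum count 10 and total 15, TMM factors, group only), with Benjamini-Hochberg adjustment over 19771 genes and a call at an adjusted p under 0.05. CPM are TMM-normalized. The SE is the unshrunk coefficient over the square root of F. All 51 members passed the filter, with at least 36 counts in every library. The named genes are all members plus, of the other replication genes, the 3 of smallest p in each direction; POLD4 was the 1 called higher, and DONSON and RNASEH2A were named outside the rule after their values were seen. Members and lists were chosen with earlier results of these data known. Exons shared with another annotated gene touch 23 members. DESeq2 1.42.0, limma 3.58.1 and other scalings and filters were alternatives. The main edgeR fit, the DESeq2 test, limma-voom and the limma fit to log2 values plus 1 were run on simulated data. Far fewer genes changed there than in these data. The other scalings and filters, the replicate block and the added constant of 0.1 were not simulated.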

Additional observations from a re-analysis of the deposited data

How the results depend on the processing

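Over 18 alternative settings, 897 of 916 member values kept their direction and side of the threshold, 6 lost the call, 8 gained it and 5 changed sign. Of the 51 genes 45 were called lower in every setting. Such shares were not computed for all tested genes, of which 70.2% were called in the main fit. These counts are therefore not a result about the members. The sign changes were ORC2 (0.18) and ORC4 (0.27) with upper-quartile factors, ORC2 (0.070) and ORC4 (0.16) at a mean count of at least 50, and ORC4 (0.022) with plain library totals; none of these passed. The scalings moved the median log2 fold change of all genes by 0.36 (upper-quartile, with 9602 genes higher and 4614 lower, against 7171 and 6706 with TMM) and 0.11 (plain totals). Upper-quartile factors left 45 members lower, at a median of -1.65. Leaving out 1 library at a time gave 46 to 49 members lower, at medians of -2.27 to -1.91, with 6318 to 6830 of all genes lower. On log2(FPKM + 1) and log2(FPKM + 0.1) 4320 and 4268 genes were higher, 7136 and 7119 lower, and 47 of 50 members were lower; the median of all genes moved by -0.29 and -0.34. MCM9 failed that FPKM filter. The members' share with 5-FU was 0.136% of counts without mitochondrially encoded genes; that alternative removes more counts there by construction. With the replicate number as a block, 6863 genes were higher, 6380 lower and 47 members lower. The labels do not say whether the numbers pair the samples. Deviations of same-numbered libraries correlated at -0.07, -0.20 and 0.06, and not every library correlated best with its own number. With 3 libraries per group these correlations cannot decide whether the samples were paired. Depth limits the 5-FU levels of PRIM1, GINS2 and GINS3, which had 36 to 83 counts per 5-FU library.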

Other observations

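The replication genes varied more between control libraries than other genes did. Their median coefficient of variation was 15.7% in the 5-FU libraries and 23.1% in the control libraries, against 10.99% and 9.83% for protein-coding genes averaging 100 counts or more. Summed over the 51 genes, normalized counts came to 836, 1049 and 1004 CPM in the 5-FU libraries, against 4172, 2879 and 4551 CPM in the control libraries. MKI67, not a member, was also lowest in 5-FU replicate 1 and in control replicate 2.

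Named pseudogenes of 7 members (DBF4, POLD2, PCNA, RFC3, RFC5, FEN1 and RPA2) are in the count table and held few reads. DBF4P1 had 0, 5 and 2 counts in the 5-FU libraries, against 5 in each control library. PCNAP4 had 5, 3 and 3 counts in the 5-FU libraries and 0 in each control library. No source used here says how reads matching both a gene and its copy were assigned.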
